A study of Homo sapiens with 9 samples.

Results

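Gene expression was compared between T47D-PA6 and T47D-VC1, stable derivatives of T47D cells. T47D is an established human luminal breast cancer cell line that expresses hormone receptors. T47D-PA6 carries a vector for full-length PTH-AS, a long noncoding RNA transcribed in antisense orientation at the parathyroid hormone (PTH) locus, and T47D-VC1 carries the empty vector. A further line, T47D-PA5, carries a vector for an incomplete PTH-AS. Its values are shown here only beside results of this comparison, but its arrays also enter the estimate of spread. All the lines were selected with G418, and the study used a single line with high expression after selection, so that a difference between lines cannot be told apart from a difference between the cells from which each line grew. Each line was hybridized to 3 single-color Agilent arrays. Fold changes rest on 6 of the 9 arrays, while the standard errors and p-values use a spread estimated from all 9. Members were all genes with a probe well above background on all 3 arrays of at least 1 of the compared lines. These were 19832 of the 43395 genes on the array, each read from its brightest tested probe over the 6 arrays. Values are the normalized signals deposited by the authors, given for replicates 1, 2 and 3 in that order. Log2 fold changes are T47D-PA6 over T47D-VC1 with their standard errors (SE, n = 3 per line), and adjusted p-values come from limma with Benjamini-Hochberg adjustment over all 19832 genes. A gene is called higher or lower when its adjusted p is under 0.05.

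Luminal breast cancer cells keep the program of milk duct epithelium. Their estrogen and progesterone receptors are transcription factors that act with FOXA1 and GATA3, and their epithelial state rests on cadherin and claudin junctions and on simple keratins. Growth factors of the TGF-beta family, G protein-coupled receptors, ion channels and the surrounding matrix all act on such cells, and lipid droplets and metal-binding metallothioneins are common features of them. Interferon-stimulated genes, which viral RNA and interferons induce, are treated here as 1 list, and the account is mainly of the genes outside it.

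Each array had between 44.0% and 48.0% of its probes well above background and 0 saturated spots. Slide 1, scanned in an earlier run, held replicate 1 of each line, T47D-VC1 replicate 2 was on slide 2, and T47D-VC1 replicate 3 and both other T47D-PA6 arrays were on slide 3. Nothing in the labels says whether replicates were separate cultures, so the p-values measure the spread between these arrays, which may be technical. The median SD over genes was 0.18 on the log2 scale in either line. Much of this lay between replicate 1 and the others. In T47D-VC1 the median absolute difference was 0.11 between replicates 2 and 3, and 0.26 and 0.24 between replicate 1 and these. In T47D-PA6 the same values were 0.09, 0.26 and 0.27. The main fit has no term for the scan run. All 12 luminal markers checked were measured, and 10 of them were not called, among them ESR1, the estrogen receptor (3690, 2514 and 2368 in T47D-VC1 and 3100, 2570 and 2472 in T47D-PA6), GATA3 and FOXA1. Only 1 of 5 basal, 1 of 6 fibroblast, 2 of 4 endothelial and 3 of 5 leukocyte markers passed the filter. Among these the leukocyte marker CD14 was higher (log2 fold change 1.80 ± 0.29 (SE), adjusted p = 0.00825) and COL1A1 of the fibroblast list was lower, and the part of other cell types in the results was not tested. The probe for PTH was within background on all 9 arrays, and no probe was named for PTH-AS, so the arrays do not check the transgene.

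Of the 19832 genes, 2055 were called (10.4%), 940 higher (4.74%) and 1115 lower (5.62%) in T47D-PA6. Counts in the gene lists below are to be read beside these shares. At an unadjusted p under 0.05 there were 5316 of the 19832 genes. List counts at that level are to be read beside this number. In a fit to the compared lines alone, without the T47D-PA5 arrays, 632 genes were called higher and 550 lower. Rises were larger than falls, since 182 called genes rose more than 4-fold and only 40 fell as far, while 569 called genes differed by less than 1.5-fold. The list of interferon-stimulated genes held 123 of the 940 higher genes and 0 of the lower ones among its 173 tested members (2 were lower at an unadjusted p under 0.05, and 0 by the unpaired test named in the study's methods, called the methods' test here), with a median log2 fold change of 1.15 against -0.04 over all genes. The methods' test was run here with Benjamini-Hochberg adjustment, which the methods do not name, and the study called array changes by ratio. It called 244 of the 19832 genes higher and 217 lower. A count of 0 by it in a short list therefore says little. Outside the interferon list 817 genes were higher and 1115 lower in limma. Protein-coding genes made up 13219 of the tested genes, with 716 higher and 751 lower, and long noncoding RNAs 1271, with 54 higher and 74 lower. The number of calls depended on which array was left out. Without T47D-VC1 replicate 2, 577 higher and 487 lower genes were called, and without T47D-VC1 replicate 3, 425 and 315. Without T47D-PA6 replicate 2 the numbers were 441 and 396, and without T47D-PA6 replicate 3, 399 and 325. Leaving out replicate 1, from the earlier scan run, raised them to 1137 and 1415 (T47D-VC1) and 1275 and 1506 (T47D-PA6). By the ratio alone, with no test, 682 genes (3.44%) were above 2 and 821 (4.14%) below 0.6, and with normexp background correction these numbers were 292 and 190, a different split of higher and lower genes.

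**Figure D1:**
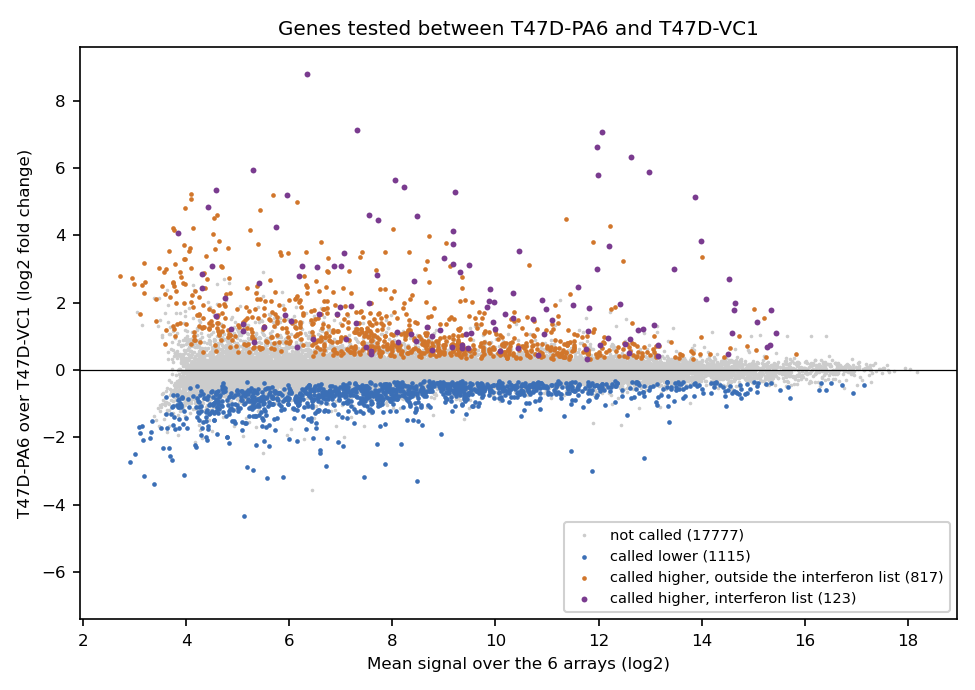
Each point is 1 of the 19832 tested genes, with the mean log2 signal over the 6 arrays of T47D-PA6 and T47D-VC1 on the x axis and the log2 fold change on the y axis. Most of the largest rises belong to the interferon list (123 genes called higher), and the 817 other higher and 1115 lower genes lie on either side of 0 at all signal levels.

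The largest rises outside the interferon list, among genes measured on all 6 arrays, were germline, adhesion and matrix genes. XAGE1B, a cancer-testis antigen normally restricted to the germ line, had signals of 166, 1041 and 994 in T47D-VC1 and 10052, 14291 and 13639 in T47D-PA6 (log2 fold change 4.49 ± 0.62 (SE), adjusted p = 0.00413). XAGE2 of the same family rose from 35.5, 165 and 148 to 1130, 1009 and 1115 (3.51 ± 0.51, adjusted p = 0.00529), and VCX2, another X-linked germline gene, from 3555, 6534 and 5923 to 38206, 60909 and 64396 (3.36 ± 0.26, adjusted p = 0.00045). T47D-VC1 replicate 1 was the lowest array for all these genes. The lines did not overlap for any of them, nor for 6171 (31.1%) of all 19832 tested genes. NLGN4X, a postsynaptic adhesion protein, had signals of 32.4, 104 and 63.3 in T47D-VC1 and 826, 1227 and 1309 in T47D-PA6 (log2 fold change 4.20 ± 0.37 (SE), adjusted p = 0.000623). SLITRK6, a membrane protein of neurite growth, went from 48, 164 and 145 to 1157, 2072 and 1941 (4.0 ± 0.46, adjusted p = 0.002). Both are best known from neurons. ADAMTS4, a protease that cleaves the proteoglycan aggrecan, rose from 112, 159.7 and 160.2 to 793, 2949 and 3082 (3.77 ± 0.48, adjusted p = 0.00292), with T47D-PA6 replicate 1 well below its other replicates. NTN4, a netrin of basement membranes, had the tightest values of the group, 24.7, 24.5 and 21.5 in T47D-VC1 and 346, 243 and 234 in T47D-PA6 (log2 fold change 3.52 ± 0.17 (SE), adjusted p = 7.5e-05). S100A14, a calcium-binding protein of epithelia, rose from 64.8, 82.5 and 60.0 to 582, 906 and 902 (3.51 ± 0.22, adjusted p = 0.000243), and HMGCLL1, an enzyme of ketone body synthesis, from 20.3, 25.9 and 12.8 to 94.1, 323 and 309.8 (3.48 ± 0.46, adjusted p = 0.00329). IFITM4P (4.28) and LGALS9C (3.50) also rank here, but the first resembles interferon-inducible IFITM genes and the second is a near copy of LGALS9, so that their probes may read those genes too. The same limit holds for the XAGE and VCX families.

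Falls were led by matrix, channel and receptor genes. KCNK1, a background potassium channel of the K2P family, had signals of 496, 551 and 525 in T47D-VC1 and 110.0, 48.3 and 37.1 in T47D-PA6 (log2 fold change -3.17 ± 0.34 (SE), adjusted p = 0.00133). COL12A1, a collagen on the surface of fibrils, fell from 16091, 8195 and 8834 to 2192, 966 and 1086 (-2.99 ± 0.36, adjusted p = 0.00233), and VCAN, the large proteoglycan versican, from 408, 225 and 249 to 46.4, 41.2 and 31 (-2.86 ± 0.26, adjusted p = 0.000673). These differences were several times their standard errors. The lines did not overlap, which was also so for 31.1% of all tested genes. FSIP1, a sperm protein that is also expressed in breast cancer, fell from 564, 674 and 601 to 135, 74.8 and 68.1 (-2.79 ± 0.24, adjusted p = 0.000561). ADGRL2, an adhesion G protein-coupled receptor, fell from 144, 269.7 and 303 to 47.1, 39.7 and 38 (-2.46 ± 0.26, adjusted p = 0.00121). PTGER4, the prostaglandin E2 receptor EP4, had nearly the same signal on all arrays of a line, 6263, 6553 and 6770 in T47D-VC1 and 1182, 1262 and 1253 in T47D-PA6 (log2 fold change -2.41 ± 0.21 (SE), adjusted p = 0.000597). MKRN3, an imprinted ubiquitin ligase, fell from 164, 231 and 283 to 29.4, 55 and 48.4 (-2.37 ± 0.28, adjusted p = 0.00223). For SPINK5, a protease inhibitor of skin (24305, 15682 and 17197 in T47D-VC1 and 10129, 1613 and 1798 in T47D-PA6), CCL28, a mucosal chemokine (524, 731 and 614 in T47D-VC1 and 356, 81.1 and 85.4 in T47D-PA6), and KCNMA1, the large-conductance calcium-activated potassium channel (359, 488 and 504 in T47D-VC1 and 219, 60.8 and 70.6 in T47D-PA6), T47D-PA6 replicate 1 lay between T47D-VC1 and the other T47D-PA6 arrays. Their log2 fold changes were -2.60, -2.19 and -2.19 (adjusted p = 0.0334, 0.0292 and 0.0233). The noncoding RNA VHRT completed the group (-2.12 ± 0.44, adjusted p = 0.0216).

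**Figure D2:**
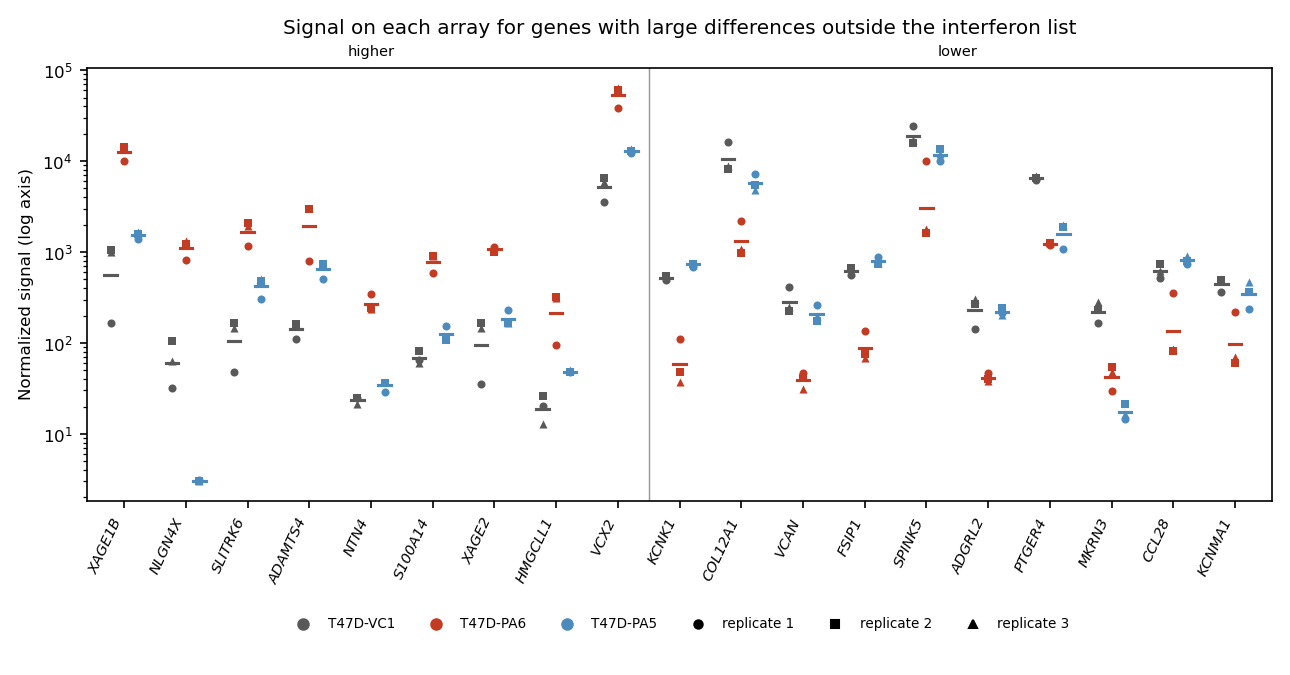
Normalized signal (log axis) on each array of T47D-VC1, T47D-PA6 and T47D-PA5 for genes with large differences outside the interferon list; symbols mark the replicate and bars the geometric mean of 3 arrays. T47D-PA6 lies above T47D-VC1 for the genes on the left and below it for those on the right, and for PTGER4 and MKRN3 the T47D-PA5 arrays are also below T47D-VC1.

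Some genes did not exceed background on any array of 1 line, and the fold is then a bound against the dimmest signal measured there. Of the 98 tested genes of this kind seen in T47D-PA6 only, 74 were called, and of the 55 seen in T47D-VC1 only, 34. They passed the filter only through the line where they are high, so their calls are partly set by the filter. List counts below include such genes, among them VIM, SPARC, INHBA, PTGER2 and HLA-DRA. SLC7A2, a transporter of arginine and other cationic amino acids, was at least 31.1-fold higher (12.5, 15.3 and 10.5 in T47D-VC1 and 361, 423 and 419 in T47D-PA6, adjusted p = 6.11e-06). ANGPT1, the ligand of the vascular receptor TIE2, was at least 17.9-fold higher, STXBP6, a regulator of vesicle fusion, at least 9.42-fold, and MBP, whose longer products are expressed outside myelin, at least 8.29-fold. The X-linked germline gene PAGE2B was at least 7.87-fold higher, although T47D-PA6 replicate 1 was far below the other replicates (26, 199 and 187). In the other direction GRIK1, a kainate-type glutamate receptor subunit, was at least 13.4-fold lower (386, 102 and 96.5 in T47D-VC1 and 9.25, 8.56 and 5.91 in T47D-PA6, adjusted p = 0.00177). C4BPB, a chain of the complement regulator C4b-binding protein, was at least 3.91-fold lower, the interleukin 9 receptor gene IL9R at least 3.27-fold, SMC5, a subunit of a DNA repair complex, at least 2.69-fold, and SLFN13, an RNA-cutting schlafen protein, at least 2.66-fold. CYP4F35P, a pseudogene of a cytochrome P450 family, was at least 2.56-fold lower. Of genes named later, DKK1, EGLN3 and CDH26 were well above background on 1 of 3 T47D-VC1 arrays, NNMT, MAGEA6, MAGEA2B, PTHLH, SLPI and LOXL1 on 2 of 3, and OXCT1 and CNTNAP2 on 1 of 3 T47D-PA6 arrays.

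G protein-coupled receptors and the enzymes downstream of them were called in both directions. Of 73 tested genes of adenylate cyclase and G protein signaling, 11 were higher (15.1%) and 6 lower (8.22%), against 4.74% and 5.62% of all genes, and the median was 0.05. Prostaglandin E2 receptors went in opposite directions. PTGER2, the receptor EP2 that raises cyclic AMP, was at least 5.99-fold higher, with 41.3, 96.3 and 107.2 in T47D-PA6 and no array well above background in T47D-VC1 (adjusted p = 0.00178), whereas PTGER4 fell as described and PTGER3, the receptor EP3 that lowers cyclic AMP, fell from 3200, 3283 and 3388 to 2748, 1988 and 2058 (-0.55 ± 0.14, adjusted p = 0.0393). The 4 tested probes of PTGER3 ranged from -0.55 to 0.19, and 1 of them was called. ADCY1, a calcium-stimulated adenylate cyclase, had signals of 33.3, 31.2 and 37.5 in T47D-VC1 and 213, 446 and 416 in T47D-PA6 (log2 fold change 3.33 ± 0.30 (SE), adjusted p = 0.000628). Both bradykinin receptors rose, BDKRB1 from 56.1, 35.2 and 30.7 to 171, 393 and 393 (2.92 ± 0.35, adjusted p = 0.00235) and BDKRB2 from 276, 170.4 and 167 to 630.2, 864 and 969 (2.02 ± 0.24, adjusted p = 0.00229). Their genes lie side by side on chromosome 14. CXCR4, the receptor of the chemokine CXCL12, rose from 60.6, 28.8 and 27 to 111, 159 and 180.3 (2.02 ± 0.31, adjusted p = 0.007), and CCR7, a homing receptor of lymph nodes, fell from 109, 136 and 123 to 50.6, 44.5 and 48.5 (-1.36 ± 0.13, adjusted p = 0.000769). RAMP1, the partner that turns the calcitonin receptor-like receptor into a receptor for CGRP, rose from 257, 150.4 and 126 to 883, 1055 and 1178 (2.61 ± 0.31, adjusted p = 0.00219), while CALCR, the calcitonin receptor, fell from 148, 67.4 and 61.1 to 30.6, 21.8 and 26.3 (-1.71 ± 0.31, adjusted p = 0.0134). GNAI1, an inhibitory G protein subunit, and PLCE1, a phospholipase C, were higher (1.86 ± 0.20, adjusted p = 0.00165 and 1.36 ± 0.14, adjusted p = 0.00111), and GNAQ and PLCB1, which act together on the phospholipase C branch, were lower (-0.79 ± 0.14, adjusted p = 0.0104 and -0.60 ± 0.14, adjusted p = 0.0329). The 3 tested probes of PLCB1 ranged from -0.60 to 0.28, with 2 called. The remaining higher members were P2RX5, an ATP-gated channel (log2 fold change 1.93), ADRB1, the beta-1 adrenergic receptor (1.24), and F2RL1, a protease-activated receptor (1.13).

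In the TGF-beta family 3 of 9 tested ligands were higher, and receptors and SMADs were called in both directions. Of 35 tested genes of TGF-beta, activin and BMP signaling, 7 were higher (20.0%) and 2 lower (5.71%), with a median log2 fold change of 0.23. INHBA, the subunit of activin A, was at least 3.87-fold higher (5.49, 4.12 and 5.28 in T47D-VC1 and 35.4, 50.9 and 63.7 in T47D-PA6, adjusted p = 0.000291). BMP7, a bone morphogenetic protein, had signals of 17.4, 27 and 28.1 in T47D-VC1 and 42.8, 177 and 220.1 in T47D-PA6 (log2 fold change 2.33 ± 0.59 (SE), adjusted p = 0.0414), and T47D-PA6 replicate 1 was nearer to the T47D-VC1 arrays than to the other T47D-PA6 arrays. TGFB1 rose from 67.8, 28.1 and 31.3 to 109, 161 and 162 (1.86 ± 0.39, adjusted p = 0.0219). PMEPA1 and BAMBI, both inhibitors of the pathway that its signal induces, rose from 755, 413 and 370.1 to 1268, 1725 and 1789 (1.69 ± 0.36, adjusted p = 0.022) and from 1864, 1296 and 1270 to 3094, 4293 and 4300 (1.41 ± 0.18, adjusted p = 0.00317). SMAD3, the transcription factor of the pathway, and TGFBR3, a coreceptor, were also higher (1.1 ± 0.21, adjusted p = 0.0164 and 1.40 ± 0.29, adjusted p = 0.0221). TGFBR1, the signaling receptor kinase, fell from 96.9, 205 and 197 to 52.2, 68.6 and 89.7 (-1.20 ± 0.31, adjusted p = 0.0447), and SMAD2, the other receptor-activated SMAD of TGF-beta, was lower by a smaller amount (-0.63 ± 0.16, adjusted p = 0.0433).

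Other growth factor pathways changed in single members. Of 31 WNT genes 4 were higher (12.9%) and 0 lower in limma (5 lower at an unadjusted p under 0.05 and 0 called by the methods' test), with a median of 0.14, namely DKK1, a secreted antagonist (3.05, 9.36 and 17.5 in T47D-VC1 and 36.9, 34.3 and 41.8 in T47D-PA6, 2.24 ± 0.55, adjusted p = 0.0374), NKD2, an intracellular antagonist (1.25 ± 0.14, adjusted p = 0.00178), WNT4, a progesterone-induced ligand (0.77 ± 0.16, adjusted p = 0.023), and LGR6, a receptor for R-spondins (0.58 ± 0.15, adjusted p = 0.0418). Of 37 genes of receptor tyrosine kinase signaling 4 were higher (10.8%) and 2 lower (5.41%), against 4.74% and 5.62% of all genes. RET, the receptor for GDNF family ligands, rose from 139, 143 and 116 to 220.0, 299 and 341 (1.09 ± 0.19, adjusted p = 0.0113). FGF receptors diverged, since FGFR2 was higher (0.75 ± 0.18, adjusted p = 0.0319), and FGFR3 and FGFR4 were lower (-0.93 ± 0.17, adjusted p = 0.0127 and -1.04 ± 0.15, adjusted p = 0.0049). The EGF receptor ligand TGFA (0.72) and PHLDA1, a gene induced by growth factor signals (1.06), were higher, but the other tested probe of TGFA had a log2 fold change of -0.48 and was not called. Among 35 cytokine receptor genes and their regulators, 4 were higher (11.4%) and 3 lower (8.57%). GHR, the growth hormone receptor, fell from 2059, 2400 and 2498 to 759, 932 and 1011 (-1.37 ± 0.14, adjusted p = 0.00111), and IL6R (-0.72 ± 0.14, adjusted p = 0.0152) and SOCS4, a cytokine signaling suppressor (-0.42 ± 0.10, adjusted p = 0.0384), were lower as well. Receptor chains for the interleukin 10 family, IL22RA1 (1.20 ± 0.25, adjusted p = 0.0201) and IL20RB (0.94 ± 0.19, adjusted p = 0.0204), the oncostatin M receptor OSMR (0.77 ± 0.17, adjusted p = 0.0287) and the TNF receptor TNFRSF1A (0.53 ± 0.09, adjusted p = 0.0116) were higher. Of 21 NOTCH and hedgehog genes 2 were higher and 4 lower. HHIP, a decoy receptor for hedgehog ligands, was at least 1.64-fold lower, and BOC, a hedgehog coreceptor, fell from 45.9, 33.6 and 31.6 to 18.6, 20.9 and 14.4 (-1.04 ± 0.22, adjusted p = 0.024). NRARP, a target and inhibitor of NOTCH, and RFNG, a glycosyltransferase that modifies NOTCH, were lower (-0.59 and -0.32), and MFNG, a related glycosyltransferase, and the hedgehog transcription factor GLI3 were higher (0.88 and 0.35). The call of GLI3 was lost with the replicate number as a block (adjusted p = 0.0541, and 0.0242 to 0.157 over all alternatives).

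**Figure D3:**
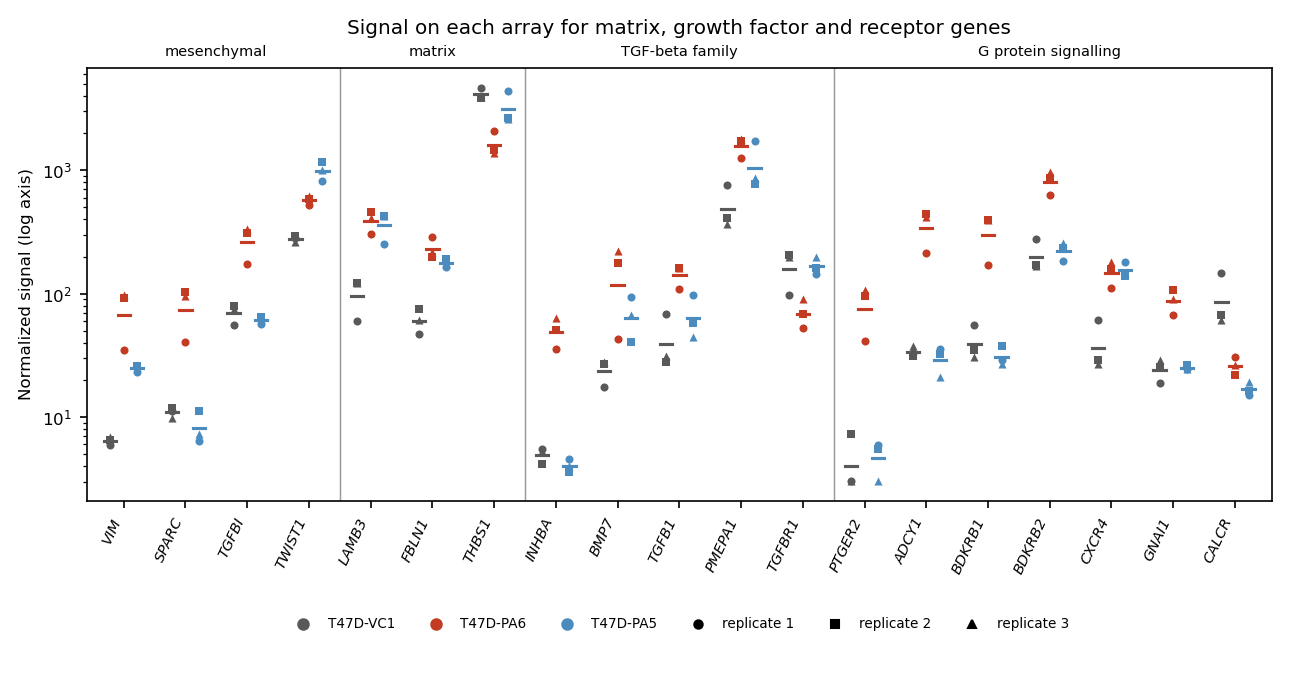
Normalized signal (log axis) on each array of the 3 lines for mesenchymal, matrix, TGF-beta family and G protein signaling genes, with bars at the geometric mean of 3 arrays. For INHBA, ADCY1, BDKRB1, BDKRB2 and GNAI1 T47D-PA5 lies with T47D-VC1, and for LAMB3, CXCR4 and CALCR it lies with T47D-PA6.

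Keratins and luminal transcription factors held no calls in limma, while a few mesenchymal genes rose from near background. Of 14 keratins 0 were called, with a median of 0.03. At an unadjusted p under 0.05 there was 1, the lower KRT10 (-0.32 ± 0.10, adjusted p = 0.07), and the methods' test called 1 lower keratin. Of 22 luminal transcription factors 0 were called by either test, with a median of -0.05, and 2 had an unadjusted p under 0.05. Among junction genes claudin CLDN7, the polarity protein CRB3 and the cadherins CDH3 and CDH26 were higher by 0.41, 0.56, 0.52 and 1.25. Of 11 tested mesenchymal markers 4 were higher (36.4%), namely VIM, SPARC, TGFBI and AXL. VIM and SPARC passed the filter only through T47D-PA6, where they are high. This share is therefore partly set by the filter and cannot be compared with that of all genes. The other 9 markers, TGFBI and AXL among them, were measured on all 6 arrays. VIM, the intermediate filament vimentin, was at least 5.38-fold higher (5.88, 6.52 and 6.89 in T47D-VC1 and 34.7, 91.6 and 97.3 in T47D-PA6, adjusted p = 0.00111), and SPARC, a matricellular glycoprotein, at least 5.85-fold (11.3, 11.7 and 9.88 in T47D-VC1 and 40.9, 103 and 94.9 in T47D-PA6, adjusted p = 0.00289). T47D-PA6 replicate 1 was the lowest T47D-PA6 array for both. TGFBI, a matrix protein named for its induction by TGF-beta, rose from 56.2, 79.4 and 75.2 to 173, 311 and 335 (1.92 ± 0.25, adjusted p = 0.00313), and AXL, a receptor tyrosine kinase of mesenchymal cells, from 123, 159 and 143 to 172, 318 and 327 (0.89 ± 0.23, adjusted p = 0.0465). TWIST1, a transcription factor of mesenchymal fate, rose from 281, 296 and 262 to 523, 585 and 614 (1.04 ± 0.14, adjusted p = 0.00413). ID3 and ID2, inhibitors of basic helix-loop-helix factors and targets of BMP signals, and the forkhead factor FOXC1 were higher too (1.25, 0.72 and 0.64), giving 4 of 10 basal or mesenchymal transcription factors higher and 0 lower. At an unadjusted p under 0.05 there were 5 higher and 0 lower, and by the methods' test 3 and 0. Of 62 cytoskeletal genes 5 were higher (8.06%) and 1 lower (1.61%), against 4.74% and 5.62% of all genes. The neuronal tubulin TUBB2B rose from 473, 209.6 and 225 to 1427, 1563 and 1570 (2.43 ± 0.31, adjusted p = 0.00314), and the tropomyosins diverged, with TPM2 higher (1.06 ± 0.27, adjusted p = 0.0435) and TPM3 lower (-0.40 ± 0.08, adjusted p = 0.0199). The call of TPM2 was lost with the replicate number as a block (adjusted p = 0.0613, and 0.00222 to 0.215 over all alternatives). Filamin FLNA and the GTPase-activating protein ARHGAP29 were higher by 0.82 and 0.84. A second tested probe of FLNA was at 0.15 and was not called.

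Matrix genes were called in both directions. Of 61 tested collagens and matrix genes 11 were higher (18.0%) and 5 lower (8.20%), with a median of 0.12. LAMB3, a beta chain of a basement membrane laminin, rose from 59.8, 123 and 123 to 304, 462 and 410.0 (2.0 ± 0.33, adjusted p = 0.00901), and FBLN1, a fibulin of elastic fibers, from 47.1, 75.8 and 60.7 to 289, 198 and 217 (1.95 ± 0.20, adjusted p = 0.00111). Basement membrane collagen COL18A1 (1.1 ± 0.12, adjusted p = 0.0016), perlecan HSPG2 (0.71 ± 0.12, adjusted p = 0.00918) and agrin AGRN (0.39 ± 0.09, adjusted p = 0.0359) were higher. So were COL16A1 (1.54), COL6A1 (1.01) and COL9A3 (0.62), the cross-linking enzyme LOXL1 (1.54), the link protein HAPLN3 (0.63) and the sheddase ADAM10 (0.41). A second tested probe of COL16A1 was at 0.31 and was not called. Beside COL12A1 and VCAN, the falls were THBS1, the matricellular protein thrombospondin-1 (4690, 3853 and 3918 in T47D-VC1 and 2087, 1458 and 1394 in T47D-PA6, -1.35 ± 0.23, adjusted p = 0.0102), the heparan sulfate proteoglycan GPC6 (-0.66 ± 0.15, adjusted p = 0.0314) and COL1A1, a chain of type I collagen (-0.50 ± 0.10, adjusted p = 0.0187). LAMC1, the gamma-1 laminin chain, was not called, with 188, 322 and 295 in T47D-VC1 and 185, 34 and 32.6 in T47D-PA6 (adjusted p = 0.0554), with T47D-PA6 replicate 1 close to T47D-VC1 replicate 1 and the other T47D-PA6 arrays far lower. Of 17 integrins 2 were higher (11.8%) and 1 lower (5.88%), against 4.74% and 5.62% of all genes. ITGB2, the beta chain of leukocyte integrins (1.57 ± 0.30, adjusted p = 0.015), and ITGA3, a laminin receptor chain (0.65 ± 0.10, adjusted p = 0.0064), were higher and ITGAV was lower (-0.50 ± 0.10, adjusted p = 0.0177). Among 46 adhesion molecules of neuronal and homophilic type 5 were higher (10.9%) and 5 lower (10.9%). The list included the neural molecule L1CAM (at least 3.71-fold higher), the semaphorin SEMA3B (1.58 ± 0.23, adjusted p = 0.00547) and ICAM1, a ligand of leukocyte integrins (221, 194 and 166 in T47D-VC1 and 523, 529 and 552 in T47D-PA6, 1.47 ± 0.12, adjusted p = 0.000461). CNTNAP2, a neurexin-like protein (31.8, 45 and 41.8 in T47D-VC1 and 21.6, 7.9 and 3.44 in T47D-PA6, -2.23 ± 0.54, adjusted p = 0.0378), CEACAM6, a carcinoembryonic antigen relative (54.6, 138 and 125 in T47D-VC1 and 31.5, 29.1 and 24.8 in T47D-PA6, -1.79 ± 0.31, adjusted p = 0.011), NCAM2 (-1.05 ± 0.23, adjusted p = 0.0278), the cell surface protein MPZL1 (-0.69 ± 0.17, adjusted p = 0.0375) and the nectin NECTIN1 (-0.57 ± 0.15, adjusted p = 0.047) were lower.

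Estrogen and progesterone response genes were not uniform. Of 53 tested, 7 were higher (13.2%) and 2 lower (3.77%), with a median of 0.07. PGR, the progesterone receptor and itself an estrogen target, fell from 17161, 14137 and 14205 to 7964, 6866 and 6862 (-1.07 ± 0.17, adjusted p = 0.007). TFF1, a trefoil peptide that is a classic estrogen target, rose in contrast from 1238, 1414 and 1415 to 5303, 3533 and 3817 (1.62 ± 0.16, adjusted p = 0.00106). STC1, the glycoprotein hormone stanniocalcin-1, was at least 3.43-fold higher (4.9, 2.49 and 4.16 in T47D-VC1 and 52.7, 32.6 and 46.8 in T47D-PA6, adjusted p = 0.000461). CCN5, a matricellular protein, rose from 586, 534 and 509 to 1894, 7352 and 7727 (3.13 ± 0.54, adjusted p = 0.0104), and SERPINA3, a secreted protease inhibitor, from 329, 236 and 204 to 3575, 1139 and 1221 (2.77 ± 0.46, adjusted p = 0.00921), with its highest value on T47D-PA6 replicate 1. The potassium channel KCNK15 (0.67), the carbonic anhydrase CA12 (0.37) and RET were the other higher members, and RAPGEFL1 was lower (-0.67 ± 0.13, adjusted p = 0.0144). PTHLH, the parathyroid hormone-like hormone gene on chromosome 12, is in no list and was named after its values were seen. Its signals were 15, 14.2 and 12.8 in T47D-VC1 and 43.9, 42 and 38.4 in T47D-PA6 (log2 fold change 1.57 ± 0.15 (SE), adjusted p = 0.000742). Among secreted mucosal and mammary proteins 4 of 29 were higher (13.8%) and 1 lower (3.45%). WFDC2, the secreted protein HE4, rose from 51.2, 59.1 and 45.8 to 306, 442 and 466 (2.94 ± 0.21, adjusted p = 0.000358), and the antiprotease SLPI from 16.6, 21 and 21.3 to 67.9, 166 and 174 (2.68 ± 0.33, adjusted p = 0.00263). S100A10, an annexin partner, was lower (-0.58 ± 0.12, adjusted p = 0.023), in contrast to S100A14.

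Potassium channels were called in both directions, as were calcium channels. Of 76 tested channels and transporters 7 were higher (9.21%) and 7 lower (9.21%), with a median of 0.02. KCNG1, a modifier subunit of voltage-gated channels, rose from 38.8, 54 and 40.2 to 117, 154 and 137 (1.62 ± 0.16, adjusted p = 0.00106), and KCNS3, another modifier subunit, was higher (1.17 ± 0.25, adjusted p = 0.0238). KCNK2, of the same family as KCNK1, fell from 12493, 8102 and 8556 to 4115, 3492 and 3657 (-1.35 ± 0.16, adjusted p = 0.00243), so that KCNK1, KCNK2 and KCNMA1 were lower while KCNK15 was higher. The L-type calcium channel genes CACNA1C and CACNA1D diverged (0.76 ± 0.19, adjusted p = 0.0417 and -1.09 ± 0.19, adjusted p = 0.0107). The plasma membrane calcium pump ATP2B4 was higher (0.75 ± 0.11, adjusted p = 0.0064) and ORAI2, a store-operated channel subunit, lower (-0.55 ± 0.12, adjusted p = 0.022). SLC40A1, the iron exporter ferroportin, fell from 11889, 13316 and 13184 to 5271, 6871 and 6800 (-1.03 ± 0.21, adjusted p = 0.0189), SLC1A1, a glutamate transporter, from 321, 428 and 392 to 158, 163 and 167 (-1.21 ± 0.16, adjusted p = 0.00329), and the efflux pump ABCC3 was higher (0.62 ± 0.16, adjusted p = 0.0413). The other tested probes of ATP2B4 and ABCC3 were not called and went the other way (-0.49 and -0.09).

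Metabolic lists held few calls apart from single genes. CD36, a fatty acid and thrombospondin receptor, had signals of 119.5, 146 and 132 in T47D-VC1 and 2049, 957 and 994 in T47D-PA6 (log2 fold change 3.24 ± 0.28 (SE), adjusted p = 0.000561), with T47D-PA6 replicate 1 above the others. It was 1 of only 2 higher genes among 44 of fatty acid handling (4.55%), the other being the desaturase relative FADS3 (0.38 ± 0.09, adjusted p = 0.0339). The 4 lower genes (9.09%) included the desaturase FADS2 (-0.71 ± 0.10, adjusted p = 0.00533), the peroxisomal oxidase ACOX3 (-0.42 ± 0.11, adjusted p = 0.0468) and the lipid droplet protein PLIN3 (-0.46 ± 0.11, adjusted p = 0.0348). Of 34 genes of cholesterol synthesis and uptake 1 was higher, the phosphatidate phosphatase LPIN1 (0.66 ± 0.15, adjusted p = 0.026), and 3 were lower, the synthesis enzymes HSD17B7 (-0.77 ± 0.20, adjusted p = 0.0466) and PMVK (-0.55 ± 0.14, adjusted p = 0.0464) and the sterol-regulated membrane protein TMEM97 (-0.67 ± 0.15, adjusted p = 0.028). A second tested probe of LPIN1 was at 0.12 and was not called. Oxidative phosphorylation held 1 call in 34, NDUFS1, the largest subunit of complex I (10428, 13166 and 13729 in T47D-VC1 and 6457, 6437 and 6449 in T47D-PA6, -0.94 ± 0.12, adjusted p = 0.00283). Of 48 hypoxia and glycolysis genes 3 were called. EGLN3, an oxygen-sensing hydroxylase, rose from 13.5, 12.4 and 16.2 to 23.9, 56.7 and 59.3 (1.63 ± 0.36, adjusted p = 0.0265), and ARNT, the partner of hypoxia-inducible factors, was lower (-0.53 ± 0.11, adjusted p = 0.0216). Of the 23 glycolysis genes 0 were called by either test, and 4 had an unadjusted p under 0.05. Outside these lists, and named after their values were seen, NNMT, which methylates nicotinamide, rose from 2.68, 15.3 and 14.9 to 201, 394 and 389.8 (5.21 ± 0.73, adjusted p = 0.00453). OXCT1, the enzyme that uses ketone bodies, fell from 106, 180.1 and 156 to 17.7, 17 and 12.8 (-3.20 ± 0.23, adjusted p = 0.00036), and ACSL6, an acyl-CoA synthetase, was at least 1.66-fold lower. Eicosanoid enzymes ALOX5, of leukotriene synthesis, and PTGIS, of prostacyclin synthesis, were at least 4.5-fold and 6.64-fold higher, chosen in the same way. So was ANXA1, a glucocorticoid-induced annexin (113, 167 and 147 in T47D-VC1 and 747, 1316 and 1426 in T47D-PA6, 2.99 ± 0.27, adjusted p = 0.000672), and CRABP1, a carrier of retinoic acid (153, 231 and 191 in T47D-VC1 and 1266, 1810 and 1843 in T47D-PA6, 3.09 ± 0.20, adjusted p = 0.000243).

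Calls among genes of DNA replication, repair and chromatin were few and mostly lower, by small amounts. Of 30 replication genes 3 were lower, and of 31 repair genes 3 (9.68%), against 5.62% of all genes, so that each share rests on 3 genes. The replication median was -0.26, and its lower genes were CDC45 (-0.63 ± 0.15, adjusted p = 0.0361), RFC3 (-0.63 ± 0.14, adjusted p = 0.0312) and the origin licensing factor CDC6 (-0.68 ± 0.18, adjusted p = 0.0457). CDC6 lost its call with the replicate number as a block (adjusted p = 0.0662, and 0.00167 to 0.139 over all alternatives). Of 37 mitosis genes 0 were called by limma or by the methods' test, 2 had an unadjusted p under 0.05, and the median was -0.14. The retinoblastoma gene RB1 fell from 3805, 3621 and 3616 to 2744, 2391 and 2457 (-0.54 ± 0.09, adjusted p = 0.0112), and CDK6, a kinase that acts on its product, was higher (0.71 ± 0.17, adjusted p = 0.0325). XPA, which verifies damage in nucleotide excision repair, fell from 714, 709.9 and 706 to 397, 380.2 and 394 (-0.86 ± 0.09, adjusted p = 0.00106), with nearly the same signal on all arrays of a line. PARP1 and the checkpoint kinase ATR were lower (-0.62 ± 0.14, adjusted p = 0.0276 and -0.38 ± 0.09, adjusted p = 0.0329) and the checkpoint kinase ATM higher (0.90 ± 0.23, adjusted p = 0.0432). Of 3 tested probes of ATM 1 was called, and the lowest was at -0.01. Of 36 chromatin and histone genes 5 were lower (13.9%) and 0 higher in limma, with 2 higher at an unadjusted p under 0.05 and 0 called by the methods' test, and the median was -0.06. The lower genes were the methyltransferases DNMT3B (-0.49) and EHMT2 (-0.39), the polycomb subunit SUZ12 (-0.40), the remodeling ATPase SMARCA2 (-0.71) and the histone H2BC21 (-0.80). A second tested probe of H2BC21 was at -0.20 and was not called. Of 44 ribosome and translation genes 1 was higher, the elongation factor EEF1A2 (0.47 ± 0.12, adjusted p = 0.0429), and 4 were lower, EEF2 (-0.71 ± 0.13, adjusted p = 0.0121), EEF1A1 (-0.43 ± 0.09, adjusted p = 0.0253), RPL22 (-0.45 ± 0.09, adjusted p = 0.0168) and RPL3 (-0.39 ± 0.10, adjusted p = 0.0467). With the replicate number as a block EEF1A2 lost its call (adjusted p = 0.0568, and 0.0176 to 0.152 over all alternatives). Housekeeping genes were mostly not called, with POLR2A higher (0.38 ± 0.09, adjusted p = 0.0338) and the transferrin receptor TFRC lower (-0.64 ± 0.15, adjusted p = 0.034) of 14. Among 38 apoptosis genes HRK, a BH3-only activator of cell death, rose from 213, 125 and 128 to 558, 595 and 638 (1.99 ± 0.22, adjusted p = 0.00177), BOK was higher (0.49 ± 0.12, adjusted p = 0.0363), and 0 were lower (1 at an unadjusted p under 0.05 and 0 by the methods' test). Of 22 p53 targets 0 were called by either test, and 8 had an unadjusted p under 0.05.

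Metallothioneins, small proteins that bind zinc and copper and are induced by metals through the factor MTF1, held calls in 1 direction. Of 10 tested genes of this group, in which MTF1 is counted, 5 were higher and 0 lower, with a median log2 fold change of 1.27. At an unadjusted p under 0.05 there were 8 higher and 0 lower. The methods' test called 0 of them. MT2A had signals of 13707, 30162 and 26061 in T47D-VC1 and 35405, 87753 and 87753 in T47D-PA6 (log2 fold change 1.55 ± 0.39 (SE), adjusted p = 0.0424), MT1E 681, 1686 and 1409 in T47D-VC1 and 2178, 6104 and 6666 in T47D-PA6 (1.93 ± 0.46, adjusted p = 0.034), and MT1B 1528, 3696 and 3263 in T47D-VC1 and 4985, 13034 and 14400 in T47D-PA6 (1.89 ± 0.44, adjusted p = 0.032). Replicate 1 was the lowest array within each line for these genes, and T47D-PA6 replicate 1 was not far above the highest T47D-VC1 array. MT1L rose by 1.82 (adjusted p = 0.0159). MTF1, 1 of the 5 higher genes, is a transcription factor and not itself a metallothionein. It rose by 0.43 (adjusted p = 0.0499, close to the threshold). MT1X was not called (125, 172 and 140.0 in T47D-VC1 and 201, 472 and 479 in T47D-PA6, 1.31 ± 0.39, adjusted p = 0.0684). These genes are near copies of each other on chromosome 16, so a probe of 1 may read another. Within the wider list of 46 stress genes the higher members also included the small heat shock protein CRYAB (1.09 ± 0.18, adjusted p = 0.00987) and the heme oxygenase HMOX1 (0.65 ± 0.17, adjusted p = 0.0491). Of 41 endoplasmic reticulum stress genes 3 were higher, DDIT3 (1.21 ± 0.23, adjusted p = 0.0152), CEBPB (0.70 ± 0.14, adjusted p = 0.0167) and HERPUD1 (0.56 ± 0.14, adjusted p = 0.0405), and CREB3L4 was lower (-0.77 ± 0.18, adjusted p = 0.0348), a call lost with the replicate number as a block (adjusted p = 0.0506, and 0.000389 to 0.158 over all alternatives).

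Promoters of the metallothioneins are printed because several of these genes rose and are known to be driven from short metal response elements. Sequences are from RefSeq (GRCh38.p14), 300 bases each, from 250 before the start to 50 after it. A promoter was found for 11720 of the tested genes and for 3 of the metallothionein genes. The motif searched was TGCGCNC or TGCACNC on both strands, and it was present in 29.3% of all 27305 promoters and in 37.9% of those of tested genes. Among genes called higher the share was 36.3%, and among genes called lower 40.2%. The motif stood at 8 places, which may overlap, in MT2A, at 4 in MT1X and at 3 in MT1B. In the sequences below, all on the plus strand, capitals mark these places. A STAT site, TTCNNNGAA, was also searched and matched at 1 place in MT2A, which is not in capitals. It was present in 6.49% of the promoters of tested genes. A match is a description of the letters and not evidence of a bound site.
MT2A, chr16:56608334-56608633: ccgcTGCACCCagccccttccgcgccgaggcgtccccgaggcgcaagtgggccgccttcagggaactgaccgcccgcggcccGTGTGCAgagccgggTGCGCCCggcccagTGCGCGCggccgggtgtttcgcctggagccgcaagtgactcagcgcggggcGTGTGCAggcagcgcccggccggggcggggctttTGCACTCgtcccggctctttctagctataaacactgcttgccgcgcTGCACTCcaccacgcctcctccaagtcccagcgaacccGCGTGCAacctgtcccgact
MT1X, chr16:56682220-56682519: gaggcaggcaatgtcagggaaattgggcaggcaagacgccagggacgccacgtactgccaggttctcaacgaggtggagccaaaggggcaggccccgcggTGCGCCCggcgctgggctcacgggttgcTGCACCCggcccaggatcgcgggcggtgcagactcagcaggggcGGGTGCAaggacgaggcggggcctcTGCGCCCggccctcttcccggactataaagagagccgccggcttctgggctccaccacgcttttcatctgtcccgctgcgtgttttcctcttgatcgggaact
MT1B, chr16:56651636-56651935: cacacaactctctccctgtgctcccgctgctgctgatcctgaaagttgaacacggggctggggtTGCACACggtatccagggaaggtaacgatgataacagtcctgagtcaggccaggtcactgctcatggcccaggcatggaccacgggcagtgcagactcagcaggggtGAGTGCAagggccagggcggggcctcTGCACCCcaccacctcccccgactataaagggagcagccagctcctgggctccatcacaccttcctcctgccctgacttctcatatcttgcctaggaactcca

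Immune genes outside the interferon list were called higher in a few families. That list is a fixed choice, and whether genes outside it respond to interferon in these cells was not tested. Among 18 MHC class II and lymphoid molecules 4 were higher (22.2%) and 1, CCL28, lower (5.56%). HLA-DRA, a chain of the class II molecule HLA-DR, was at least 1.37-fold higher (2.54, 2.49 and 2.5 in T47D-VC1 and 25.1, 11.4 and 18 in T47D-PA6, adjusted p = 0.0116), HLA-DQB1 rose from 219, 292 and 236 to 1232, 536 and 628 (1.59 ± 0.33, adjusted p = 0.0211), and the peptide loading genes HLA-DMB (1.37 ± 0.33, adjusted p = 0.034) and CD74 (0.97 ± 0.25, adjusted p = 0.0432) were higher. T47D-PA6 replicate 1 had the highest values of HLA-DRA, HLA-DQB1 and HLA-DMB. The type III interferon genes were higher as well, IFNL1 by at least 4.65-fold (6.57, 2.48 and 2.66 in T47D-VC1 and 33.3, 73.1 and 82.1 in T47D-PA6, adjusted p = 0.00242) and IFNL2 from 30.8, 24.4 and 28.4 to 133, 222 and 236 (2.78 ± 0.23, adjusted p = 0.000552). They are near copies, and a probe of 1 may read the other. IFNB1 and IFNL3 did not pass the filter. IL20, a cytokine of the interleukin 10 family, was at least 1.7-fold lower. In the complement and coagulation list of 15, C4B (1.03 ± 0.15, adjusted p = 0.00547) and the anticoagulant PROS1 (0.98 ± 0.20, adjusted p = 0.0201) were among the higher genes. The terminal component C5 fell from 153, 262 and 243 to 86.7, 44.3 and 39.1 (-2.01 ± 0.31, adjusted p = 0.00645), and the regulator CD46 was lower (-0.41 ± 0.09, adjusted p = 0.0275). Of 30 NF-kB genes RELB (0.55 ± 0.11, adjusted p = 0.0178) and ICAM1 were higher and the kinase IKBKE lower, from 42.6, 52.9 and 47.4 to 20.7, 25 and 20.0 (-1.12 ± 0.14, adjusted p = 0.00308).

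Promoters were also searched for the interferon-stimulated response element, GAAANNGAAA on either strand. It was present in 54.5% (48 of 88) of the promoters of interferon-list genes called higher, in 2.31% (11 of 476) of the other genes called higher and in 2.88% (20 of 694) of those called lower. In all 11720 tested genes with a promoter the share was 2.88%, and in all promoters 3.65%. The 11 genes were BCO2, CARINH, CLDN7, DDO, EMP3, GOLGA6A, GOLGA8M, MVP, PAGE2B, PATL2 and PSMB8-AS1. The promoter of PAGE2B, the only one of them among the largest rises, is shown with that of IFI27 from the interferon list for comparison, both on the plus strand with the motif in capitals. No match says only that these letters are not in the window.
PAGE2B, chrX:55074780-55075079: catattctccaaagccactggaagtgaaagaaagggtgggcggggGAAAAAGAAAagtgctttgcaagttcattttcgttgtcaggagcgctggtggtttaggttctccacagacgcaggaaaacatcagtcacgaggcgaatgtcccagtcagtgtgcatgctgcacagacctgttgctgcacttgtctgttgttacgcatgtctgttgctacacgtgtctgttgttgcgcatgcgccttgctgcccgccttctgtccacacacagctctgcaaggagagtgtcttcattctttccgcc
IFI27, chr14:94110486-94110785: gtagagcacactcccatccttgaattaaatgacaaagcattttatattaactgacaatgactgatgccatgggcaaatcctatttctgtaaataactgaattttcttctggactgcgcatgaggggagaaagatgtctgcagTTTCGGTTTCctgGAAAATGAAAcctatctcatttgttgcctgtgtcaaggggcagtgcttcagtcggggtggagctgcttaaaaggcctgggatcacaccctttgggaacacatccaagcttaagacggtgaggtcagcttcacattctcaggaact

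The X-linked germline gene families were counted after XAGE1B, XAGE2 and VCX2 had been seen, and the count is a description. Of 19 tested members of the MAGEA, MAGEB, XAGE, PAGE, GAGE, VCX, SSX, CT45A and CSAG families on the X chromosome, 7 were higher and 0 lower in limma, with a median of 0.49, 1 was lower at an unadjusted p under 0.05, and the methods' test called 1 higher and 0 lower. Besides XAGE1B, XAGE2, VCX2 and PAGE2B these were MAGEA6 (12.5, 32.2 and 46 in T47D-VC1 and 203, 484 and 498 in T47D-PA6, 3.79 ± 0.54, adjusted p = 0.0049), MAGEA2B (3.52 ± 0.64, adjusted p = 0.0127) and PAGE2, at least 4.41-fold higher. The 12 others had log2 fold changes between -0.64 and 1.54, and the GAGE and SSX genes tested were not called. Of the imprinted genes tested, IGF2 (0.86 ± 0.17, adjusted p = 0.0168) and PHLDA2 (0.66 ± 0.12, adjusted p = 0.0139), neighbors on chromosome 11, were higher.

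Leaving out the interferon list and the X-linked families just counted, both of which had larger shares, the lists with the highest share of higher genes were MHC class II, complement and coagulation, TGF-beta, imprinted and germline genes, and matrix. Over all list genes outside the interferon list, 114 were called higher and 72 lower. These numbers were 73 and 29 without T47D-VC1 replicate 2, 52 and 26 without T47D-VC1 replicate 3, 53 and 25 without T47D-PA6 replicate 2, and 52 and 25 without T47D-PA6 replicate 3. Without T47D-VC1 replicate 1 they were 126 and 124, and without T47D-PA6 replicate 1 they were 151 and 92. Keratins and chromatin, cell cycle, repair, ribosome and oxidative phosphorylation genes had the smallest shares of higher genes. The lists differ in how bright their genes are, which was not tested, and small lists move by several percent with a single gene.

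**Figure D4:**
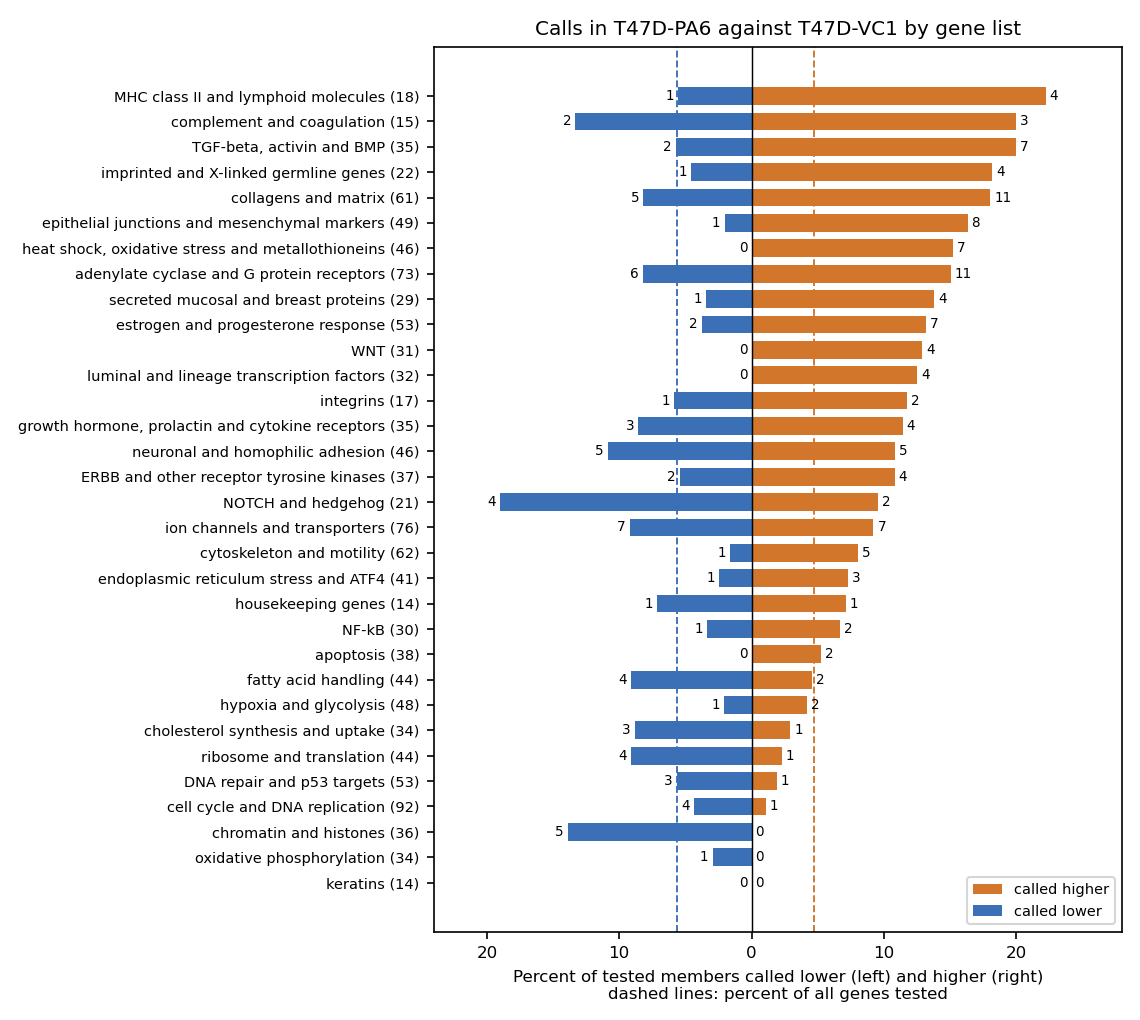
Percent of the tested members of each gene list called higher (right) and lower (left) in T47D-PA6 against T47D-VC1, with the number of called genes at each bar and the number tested in parentheses. Dashed lines mark the percent of all genes called higher (4.74%) and lower (5.62%); 4 of 18 MHC class II and lymphoid genes were higher and 4 of 21 NOTCH and hedgehog genes lower.

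Lower genes were unevenly spread over the chromosomes. On hg19, the build of the array files, 6 of 42 chromosome arms had a median log2 fold change below -0.15, a limit chosen after the values were seen. They were 9q (-0.27, 604 genes, 14 higher and 126 lower), 13q (-0.25, 348 genes, 3 and 49), 16p (-0.24, 544 genes, 14 and 64), 1q (-0.20, 891 genes, 24 and 127), 17q (-0.19, 898 genes, 24 and 101) and 3q (-0.15, 563 genes, 19 and 48). Under the other normalizations 3q was above this limit (-0.148, -0.138 and -0.095), and with normexp background correction 1q (-0.142) and 17q (-0.135) were as well, which left 3 arms. Within slide 1 the medians were -0.22 on 9q, -0.20 on 13q, -0.15 on 16p, -0.09 on 1q, -0.17 on 17q and -0.14 on 3q. Within slide 3 they were -0.28, -0.26, -0.28, -0.25, -0.20 and -0.16 in the same order. The other arms with at least 100 genes had medians between -0.10 and 0.14, the highest on 8p, where slide 1 gave -0.02 and slide 3 gave 0.21. The 6 arms held 19.5% of the genes placed on an arm, 46.5% of those called lower and 10.5% of those called higher. On them 13.4% of genes were lower, against 3.74% on the other arms. Many of the lower genes described above lie there. On 9q are XPA (chromosome 9, 100437513 to 100437572), TGFBR1, C5, GNAQ, SMC5 and NRARP. On 13q are RB1 (chromosome 13, 49055845 to 49055904) and RFC3. On 1q are KCNK1 (chromosome 1, 233807558 to 233807617), KCNK2, IKBKE, PARP1, IL6R, S100A10, C4BPB, CREB3L4, HSD17B7, TPM3, H2BC21 and CD46. CDC6, CCR7, TMEM97, RAPGEFL1 and COL1A1 are on 17q, and BOC and TFRC on 3q. The positions given are those of the probes. S100A14, ADAMTS4 and LAMB3 rose although they lie on 1q. Genes on an arm share a position and are not replicates, and DNA content was not measured, so its part in these values was not tested. With T47D-PA5 as the reference, whose comparison shares the T47D-PA6 arrays, the medians were -0.57 on 1q and -0.26 on 9q, and T47D-PA5 over T47D-VC1 gave 0.31 and -0.01.

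**Figure D5:**
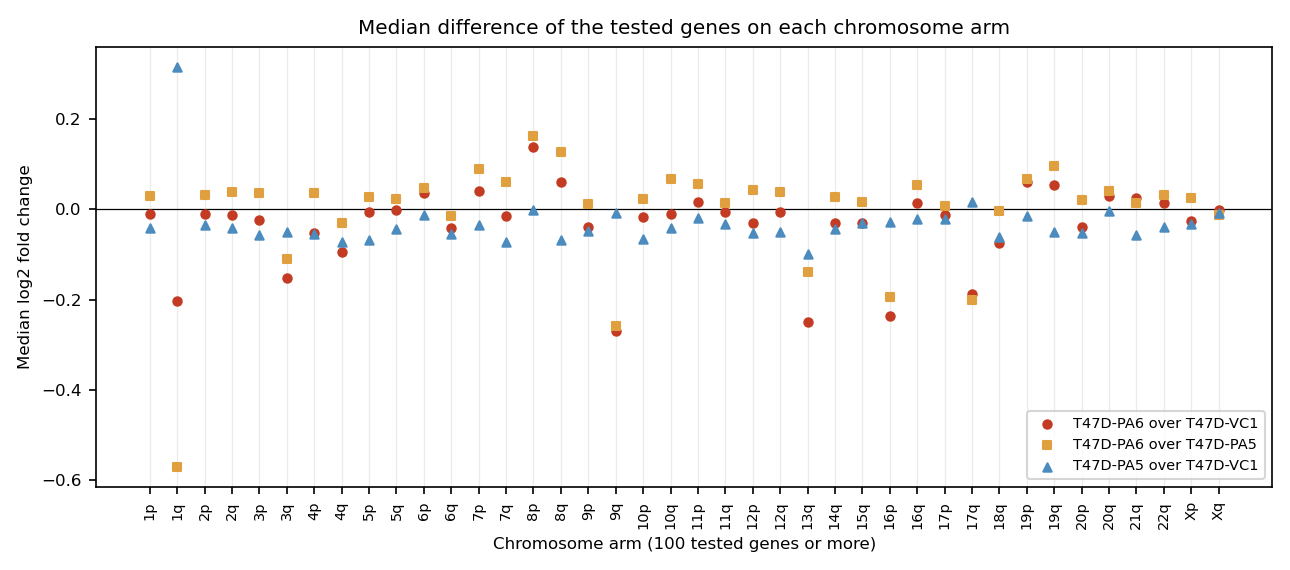
Median log2 fold change of the tested genes on each chromosome arm with 100 genes or more, for the 3 comparisons between the lines. In T47D-PA6 over T47D-VC1 the arms 9q (-0.27), 13q (-0.25), 16p (-0.24), 1q (-0.20), 17q (-0.19) and 3q (-0.15) are the lowest; on 1q T47D-PA5 over T47D-VC1 is at 0.31.

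Beside the line with incomplete PTH-AS, the called genes were of different kinds. T47D-PA6 against T47D-PA5 gave 1930 calls (9.73%), 737 higher (3.72%) and 1193 lower (6.02%), a comparison that shares the T47D-PA6 arrays with the main one. Of the 156 called genes that the rule for naming genes picks, 112 were called with the same sign against T47D-PA5 as well. The numbers over all called genes were 409 of 940 higher and 576 of 1115 lower, a smaller share than among the named genes, which were picked for large differences. Of the named genes, 71, 68, 48 and 46 were called so without T47D-VC1 replicate 2, T47D-VC1 replicate 3, T47D-PA6 replicate 2 and T47D-PA6 replicate 3. Without replicate 1 of T47D-VC1 or of T47D-PA6 they numbered 109 and 115. ADCY1 was at 35.6, 32.3 and 21.2 in T47D-PA5, a log2 fold change of T47D-PA6 over T47D-PA5 of 3.56 (adjusted p = 0.000978). The same comparison gave 3.28 for BDKRB1 (adjusted p = 0.00224), 3.60 for INHBA (adjusted p = 0.000184), and 3.19 for SPARC (adjusted p = 0.00231). CD36 (3.20, adjusted p = 0.00106), WFDC2 (3.0, adjusted p = 0.000415), NTN4 (2.98, adjusted p = 0.000184) and KCNK1 (-3.65, adjusted p = 0.00147) differed from both other lines as well. For other genes no difference from T47D-PA5 was called. PTGER4 was at 1075, 1904 and 1968 in T47D-PA5, and T47D-PA6 over T47D-PA5 was -0.37 (adjusted p = 0.328). CXCR4 was at 182, 139.9 and 147 (-0.08, adjusted p = 0.911), LAMB3 at 251, 429.9 and 429 (0.10, adjusted p = 0.889) and COL16A1 at 306, 421 and 429 (-0.03, adjusted p = 0.966). A few genes had moved farther in T47D-PA5 than in T47D-PA6. STC1 was at 117, 78.5 and 99.1 in T47D-PA5 (-1.17, adjusted p = 0.0369), TWIST1 at 816, 1167 and 1010 (-0.79, adjusted p = 0.0126), PLCE1 at 2540, 1928 and 1934 (-1.33, adjusted p = 0.00215), IGF2 at 1335, 969 and 980.5 (-1.03, adjusted p = 0.0083) and MKRN3, in the downward direction, at 14.6, 21.4 and 16.4 (1.31, adjusted p = 0.0239). NLGN4X was at 3.14, 3.05 and 3.0 in T47D-PA5, where no array was well above background, so its order was T47D-PA6, then T47D-VC1, then T47D-PA5.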

How the data were processed

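Total RNA of the T47D lines was measured on single-color Agilent whole-genome arrays with probe positions on hg19. The authors extracted each spot's intensity with Feature Extraction software (10.7.1.1 per the file headers, 9.5.1.1 per the submitters' processing notes), and deposited scanner intensities and quantile-normalized intensities of 58201 probes in table form. These normalized values were taken to log2 here. They tracked each array's own processed signal, so their scale is linear and their direction is that of the signal. Probes were kept when their spots were well above background on all 3 arrays of T47D-PA6 or of T47D-VC1 (25802 probes), and each gene was read from its brightest kept probe. Other named genes can also have a kept probe that was not called, beyond those pointed out. RefSeq matched 31127 probes through the symbol, 3343 through an accession and 496 through a synonym. The remaining 23235 kept the name in the files.

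A single limma model (lmFit and eBayes, limma 3.58.1 in R 4.3.3) of all 9 arrays, with 6 residual degrees of freedom, shared the estimate of spread between the lines. Benjamini-Hochberg adjustment ran over 19832 genes, and genes with an adjusted p below 0.05 were called. The methods' test was adjusted and called in the same way. For a gene that 1 line did not show above background, the fold is a bound against the dimmest signal well above background on its arrays, or its own signal where higher. The number of arrays limits the precision, and an exact permutation test of 3 against 3 arrays cannot go below p = 0.1. Same-numbered arrays of the lines deviated together (correlations of 0.33, 0.14 and 0.24 for replicates 1, 2 and 3, from the data and not the labels), although T47D-VC1 replicate 2 with T47D-PA6 replicate 3 (0.25) and T47D-VC1 replicate 3 with T47D-PA6 replicate 2 (0.26) did so as well, so that replicates 2 and 3 are not told apart. As all same-numbered correlations were over 0.1, a fit with the replicate number as a block was run as an alternative. Unless stated, values and calls come from the fit without the block. Among the 156 called genes picked by rule, the block fit is given where it changes a call. With the block, 136 list genes outside the interferon list were higher and 92 lower, against 114 and 72 without it.

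Genes named are the 12 largest rises and falls among genes measured on all 6 arrays outside the interferon list, the 6 largest bounds each way, up to 2 rises and 2 falls of each gene list, genes that the study names for T47D cells, and others said to be chosen after their values were seen. Other called members of a list are named for completeness. The comparison, the lists and the members were chosen with earlier results of these data known. Some genes are not reported here. The alternatives were other normalizations of the scanner files (75th percentile shift, normexp with an offset of 50), other filters and probe choices, blocks for slide, scan run and replicate number, an intensity trend, the unpaired t-test named in the study's methods (called the methods' test), a fit to the compared lines alone, single slides and scan runs, and each array left out.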

Additional observations from a re-analysis of the deposited data

How the results depend on the processing

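All counts rest on 3 arrays per line, and probes near background limit the folds of dim genes. None of the 156 called genes picked by rule changed direction under the alternatives refitted for it. Other named genes were not followed through the alternatives. Of the 156, 156 kept their call with quantile normalization done anew, with the scan run as a block and in the later scan run only, 150 with normexp, 143 with the 75th percentile shift, 139 with the slide as a block, 112 with the compared lines alone, 106 with no filter and 49 by the methods' test, and from 92 to 143 without a single array. With the replicate number as a block, 1232 genes were higher and 1468 lower, and 5 of the 156 calls were lost (those of GLI3, CDC6, CREB3L4, EEF1A2 and TPM2). It changed no other of these calls. Of the 940 higher genes' count, the methods' test gave 244, the later scan run only 3448 and the scan run as a block 1697, and the range without single arrays was 399 to 1275. For the 1115 lower genes these were 217, 4032 and 2283, with 550 for the compared lines alone, 673 with no filter, and 315 to 1506 without single arrays. Ratios above 2 numbered 1744 with no filter and 292 with normexp (665 to 781 without single arrays), and ratios below 0.6 numbered 1916, 190 and, within slide 1, 1508 (851 to 978). Within slide 3, added after the data were seen, they numbered 845 and 1085. Of list genes outside the interferon list, 365 were higher in the later scan run only, 172 with the scan run as a block, 67 with no filter and 23 by the methods' test (52 to 151 without single arrays). Lower ones numbered 309, 129, 43 and 16, with 38 for the compared lines alone (25 to 124). Named genes that also differed from T47D-PA5 fell from 112 to 57 with no filter (46 to 115 without single arrays). Under no filter more genes are tested, and under the methods' test and the compared lines alone the spread rests on fewer arrays. The cause of the other shifts was not tested. Of the 6 arms with medians below -0.15, 9q, 13q and 16p stayed below that limit under all the normalizations tried, 1q and 17q under all but normexp, and 3q under none of the others.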
